A study of Mus musculus with 18 samples.

Results

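The spleens of tumour-bearing mice were compared with those of tumour-free mice under the label code P, which gave 3 T_P and 3 N_P libraries of the 18 in the series. Whole splenocytes of female Balb/c mice were sequenced. T marks animals in whose mammary pads 4T1 cells, a transplantable mouse mammary carcinoma line, had been placed on day 0, and N marks animals labelled WT, with no tumour. The design text names an antibody to G-CSF, an antibody to PD-1 and a control IgG, given into the peritoneum at 10 mg/kg on days 18, 21 and 24, with splenocytes taken on day 29. The other 12 libraries carry the codes I and GC in the same T and N arrangement. No label expands a code, and the treatment tag contradicts a treatment that varies by code, since all T libraries read anti-PD-1 there and all N libraries WT. In the cell-type tag all 18 libraries are tumour-bearing. T_P and N_P are therefore used here as codes, and it was not tested which antibody either group received. The labels give no age and do not say whether a library holds 1 animal or a pool, so the p-values measure the spread between these libraries only.

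The adult mouse spleen filters blood through a red pulp of iron-recycling macrophages and holds B cell follicles and T cell zones in its white pulp. In mice it also keeps the capacity to make granulocytes and red cells, which expands under inflammation and with transplanted tumours. Neutrophils load their granules in sequence as they mature, primary granules at the promyelocyte stage and secondary and tertiary granules later, so the granule transcripts mark stages of maturation. 4T1 tumours are known for releasing G-CSF and for the accumulation of immature granulocytes in blood and spleen.

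Transcript levels were deposited as TPM, a length-scaled share of a library scaled to a fixed total. A difference is a log2 fold change of TPM + 1, T_P against N_P, given ± its standard error from limma with the p-value adjusted over all 16635 tested genes (Benjamini-Hochberg, called at 0.05). Means of TPM are given ± SD (n = 3 libraries each), and single values follow the order of libraries 26, 39 and 43 for T_P and 17, 29 and 38 for N_P. Of the tested genes, 11505 (69.2%) were called, 3138 (18.9%) higher and 8367 (50.3%) lower in T_P. TPM of a library have a fixed total, so abundant genes that rise press the others down. The median of all tested genes lay at −0.41, and scaling by the median of ratios moved it to −0.03 and the calls to 5376 (32.3%) higher and 5071 (30.5%) lower. Changes are therefore to be read against the median of all genes. In bulk RNA, fewer cells of a type and less RNA per cell cannot be told apart.

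The 6 libraries fell into their labelled groups. On the first principal component of the 6 libraries, which carried 78.7% of the variance, the T_P libraries lay between 69.2 and 79.0 and the N_P libraries between −76.4 and −72.9. Replicates correlated at 0.974 to 0.976 in T_P and 0.969 to 0.970 in N_P across genes, which are not independent, and the median SD of a gene within a group was 0.129 and 0.122 log2 units. The transcriptome was more concentrated in T_P, where 147, 147 and 158 genes made up 50% of all TPM, against 248, 220 and 204 genes in N_P. Sequencing depth is unknown from TPM. N_P carried the defining genes of spleen lymphocytes and red pulp macrophages (Ms4a1 at 329 ± 25.9 TPM, Cd3e at 193 ± 7.54 and Spic at 62.9 ± 12.2), whereas the splenic stroma factors Tlx1, Nkx2-5 and Wt1 were under the filter of 1 TPM in at least 3 of the 18 libraries.

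**Figure D1:**
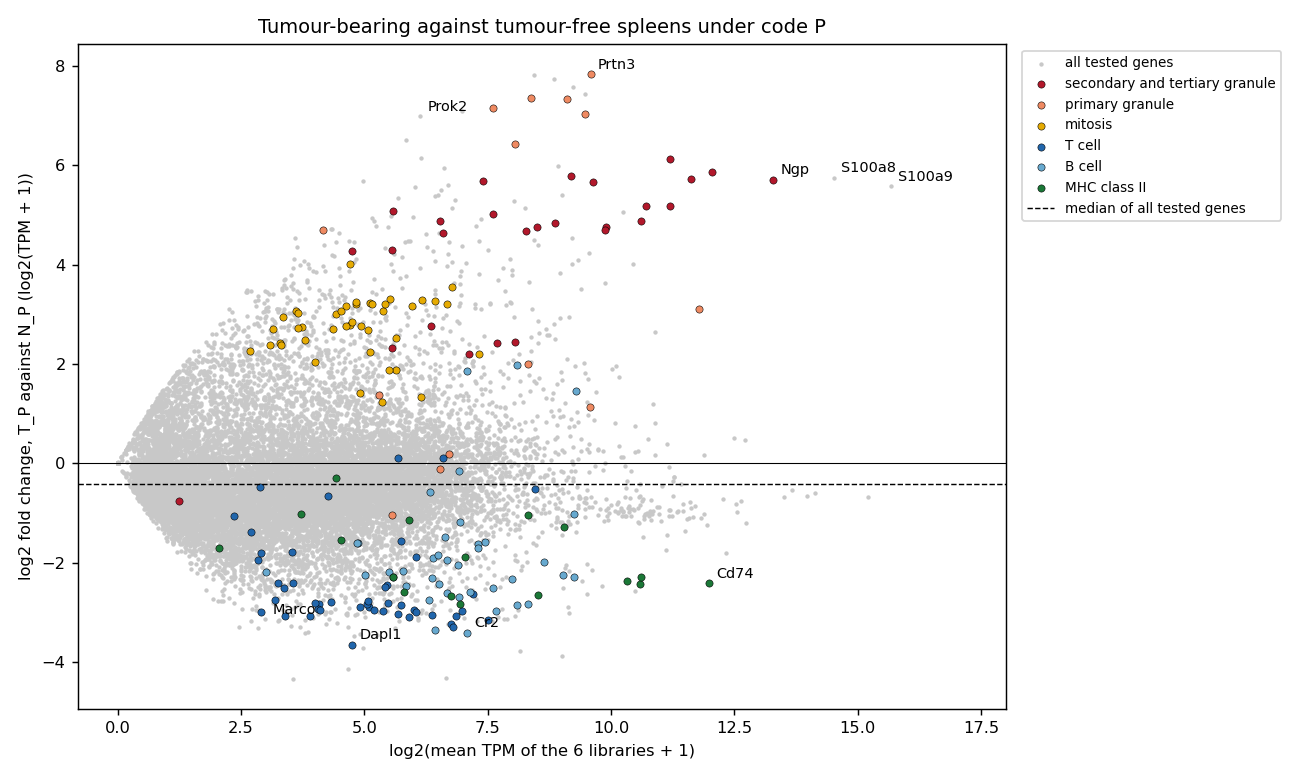
Log2 fold change of every tested gene (vertical axis, T_P against N_P on the log2(TPM + 1) scale) against its mean level over the 6 libraries (horizontal axis, log2). Granule genes (red and orange) lie highest, up to Prtn3 at 7.84, mitosis genes (yellow) are all above 0, and T cell, B cell and MHC class II genes (blue and green) lie mostly below the dashed median of all tested genes.

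Genes of early granulocyte stages were among the largest rises. Prtn3, which encodes the primary granule protease proteinase 3, measured 1511, 1630.2 and 1449 TPM in T_P and 5.53, 9.48 and 3.38 TPM in N_P. Its fold change was the largest of the genes named here (log2 fold change 7.84 ± 0.38, adjusted p = 2.60e-10). Elane, neutrophil elastase, measured 1092, 1183 and 1009 TPM in T_P and 5.49, 8.75 and 3.92 TPM in N_P (log2 fold change 7.33 ± 0.41, adjusted p = 9.57e-10). Mpo, myeloperoxidase, which makes hypochlorous acid, measured 1322, 1652 and 1255 TPM in T_P and 8.37, 15.4 and 7.02 TPM in N_P (log2 fold change 7.03 ± 0.41, adjusted p = 1.23e-09). In each of these 3 genes library 39 was the highest of T_P and library 29 the highest of N_P. Ctsg, cathepsin G, and Ms4a3, a gene of granulocyte-monocyte progenitors, rose by 7.35 and 7.15. Of the 14 primary granule genes tested, 11 were called higher and 1 lower (median log2 fold change 3.90; 13 and 1 under median-of-ratios scaling). The list held 1.38% ± 0.0515 of TPM in T_P and 0.165% ± 0.00719 in N_P. Lyz2, lysozyme, started from a higher level and rose from 734 ± 85.1 TPM in N_P to 6341 ± 684 in T_P (3.11), and Srgn, the proteoglycan core of granules, rose from 476 ± 22.8 TPM in N_P to 1051 ± 37.4 in T_P. Ctsc, the protease that activates the granule serine proteases, was not called (0.18, 0.212 as adjusted p), nor was Nkg7, which cytotoxic lymphocytes also express. Median-of-ratios scaling called both higher, Ctsc at 0.67 and Nkg7 at 0.38.

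Genes of the secondary and tertiary granules reached higher levels in T_P than those of the primary granule, as shares of TPM. Ngp, neutrophilic granule protein, measured 19885, 19804 and 19193 TPM in T_P and 416, 564 and 223 TPM in N_P. This placed it among the 15 most abundant genes of T_P (log2 fold change 5.71 ± 0.54, adjusted p = 2.53e-07). Lcn2, lipocalin-2, which binds bacterial siderophores, measured 8579.5, 8490.0 and 7978 TPM in T_P and 164, 191 and 90.2 TPM in N_P (log2 fold change 5.87 ± 0.52, adjusted p = 1.01e-07). Ltf, lactoferrin, measured 6157, 6473 and 5780.1 TPM in T_P and 124, 179 and 68.9 TPM in N_P (log2 fold change 5.72 ± 0.52, adjusted p = 1.39e-07). The T_P libraries differed little among themselves in these 3 genes, whereas within N_P library 38 was the lowest and library 29 the highest in each. Of 27 members tested, 26 were called higher and 1 lower (median log2 fold change 4.84; 26 and 1 under median-of-ratios scaling), and the list held 6.06% ± 0.138 of TPM in T_P and 0.16% ± 0.0374 in N_P. Camp, the cathelicidin precursor, rose from 131 ± 54.9 TPM in N_P to 4555 ± 569.6 in T_P (5.19), Mmp8 and Mmp9, the granule collagenase and gelatinase, rose by 5.02 and 4.75, and Padi4, which citrullinates histones, rose by 4.87. Orm3, a copy in the orosomucoid family whose reads can be exchanged with its neighbours, was the member that fell, from 1.95 to 0.757 TPM.

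The upstream sequences of granule genes are shown because many members of the list moved together and the family of C/EBP factors, whose member Cebpe is described below, is known to act on them. RefSeq windows of 250 bases before to 50 after the start (build GRCm38.p6) were found for 22 of the 27 tested members. The C/EBP-type word TTGCNNAA, searched on both strands, occurred in 10 of these 22 genes (45.5%), in 2 of 10 primary granule genes with a window and in 10.8% of all 32851 windows. A list gene counted once if any of its windows matched, while all windows were counted singly. The list shares and the share of all windows are therefore not like measures. It was kept from a larger set of words that were searched. A match is a description of letters, not a site that was tested. The 250 bases before the start of Ngp (chr9:110419558-110419807, + strand) and Ltf (chr9:111019042-111019291, + strand) follow, with the word or its reverse complement in capitals.
Ngp: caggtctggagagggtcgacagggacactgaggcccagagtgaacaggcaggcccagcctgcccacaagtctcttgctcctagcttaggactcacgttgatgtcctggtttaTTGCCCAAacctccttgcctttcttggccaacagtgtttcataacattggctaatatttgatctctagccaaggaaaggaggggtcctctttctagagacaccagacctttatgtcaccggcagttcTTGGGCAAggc
Ltf: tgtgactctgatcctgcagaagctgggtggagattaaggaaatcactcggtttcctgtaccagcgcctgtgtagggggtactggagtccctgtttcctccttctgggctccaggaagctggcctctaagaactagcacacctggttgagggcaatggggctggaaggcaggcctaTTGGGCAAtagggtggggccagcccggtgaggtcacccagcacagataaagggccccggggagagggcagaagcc
In Ngp the first match begins 138 bases before the start, and in Ltf the match begins 75 bases before it.

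The calprotectin subunit genes S100a8 and S100a9, whose proteins bind zinc and calcium and signal inflammation, together took 15.6%, 14.4% and 14.3% of all TPM in the T_P libraries and 0.342%, 0.349% and 0.223% in N_P. The libraries did not overlap, and an exact two-sided permutation test over 3 against 3 libraries gave p = 0.1, the smallest value it can give, as it did for every share of TPM whose groups did not overlap. S100a9 was the most abundant gene of every T_P library and measured 107305, 100616 and 98165 TPM in T_P and 2454, 2435 and 1636 TPM in N_P (log2 fold change 5.57 ± 0.37, adjusted p = 5.06e-09). Of 9 S100-type genes tested, 6 were called higher and 2 lower (median log2 fold change 2.59; 7 and 2 under median-of-ratios scaling). S100a6 and S100a11 rose by 4.24 and 2.64, S100a10, the partner of annexin A2, fell by 1.12 on the log2 scale, and S100a4 was not called (206 TPM in T_P and 218 in N_P) except under median-of-ratios scaling, where it was called higher (0.38). The 94 genes of the 4 neutrophil lists together held 24.6%, 23.3% and 22.9% of TPM in T_P and 0.962%, 0.957% and 0.801% in N_P. With these genes removed and TPM rescaled, 4698 genes were called higher and 5729 lower of 16816 tested.

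Surface and mature neutrophil genes rose as well. Of 34 members tested, 31 were called higher and 2 lower (median log2 fold change 3.38; 32 and 0 under median-of-ratios scaling). Prok2, which encodes the secreted peptide Bv8, measured 106, 163 and 146 TPM in T_P and 0.11, 0.05 and 0.07 TPM in N_P (log2 fold change 7.0 ± 0.27, adjusted p = 3.75e-11), so that all N_P libraries were near 0. Ly6g, the surface antigen used to define mouse neutrophils, measured 634, 550.0 and 582 TPM in T_P and 17.8, 22.1 and 9.49 TPM in N_P (log2 fold change 5.15 ± 0.46, adjusted p = 1.18e-07). Csf3r, the G-CSF receptor, measured 725, 901 and 785 TPM in T_P and 127, 86.2 and 133 TPM in N_P (log2 fold change 2.81 ± 0.27, adjusted p = 2.33e-07), and its ligand gene Csf3 was under the filter. The chemokine receptor Cxcr2, which draws mature neutrophils out of the marrow, rose from 37.7 ± 7.84 TPM in N_P to 424 ± 23.4 in T_P (3.48). Cxcr4, which holds granulocytes in the marrow and is abundant in lymphocytes, fell from 317 ± 40.7 TPM in N_P to 189.5 ± 11.5 in T_P (−0.73) and lost its call under median-of-ratios scaling. Mrgpra2b, Fpr1 and Fpr2, receptors of peptides and formyl peptides, rose by 4.37, 3.49 and 4.51. The stefin genes Stfa2, Stfa3, Cstdc5 and Cstdc6 rose by 7.73, 7.83, 7.43 and 7.57, but these near-identical copies can exchange reads, so their separate values are uncertain. Saa3, an acute-phase serum amyloid, rose by 7.09 with 118, 329 and 299.6 TPM in the T_P libraries, among which library 26 stood lowest, and Lipg, endothelial lipase, rose by 6.52.

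**Figure D2:**
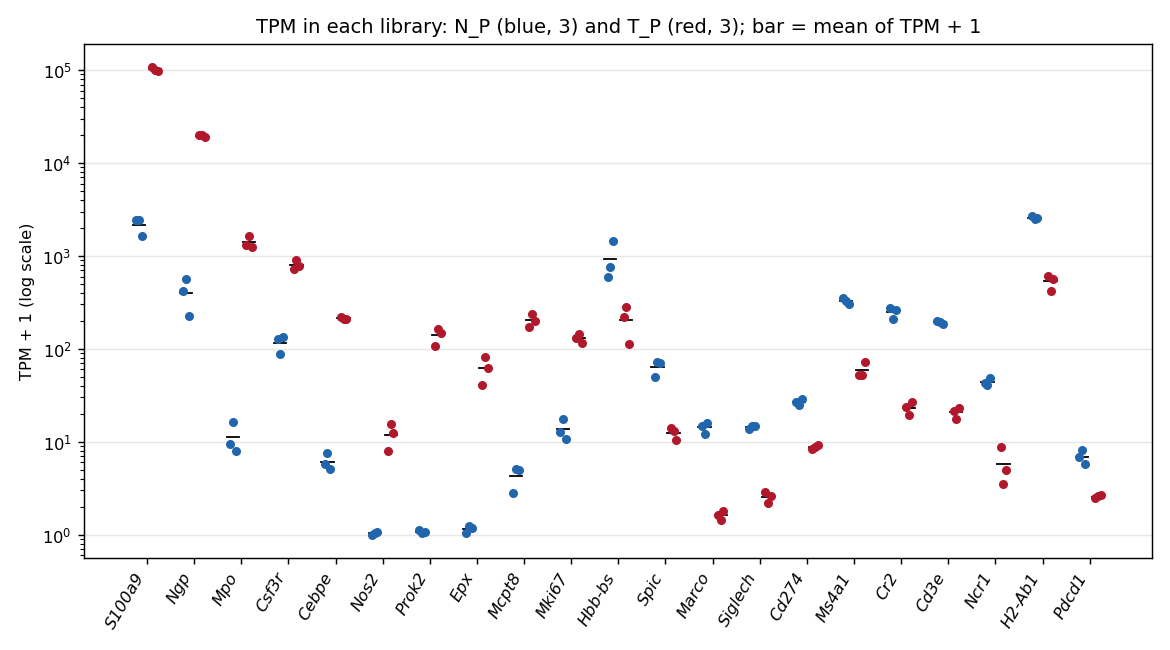
TPM + 1 of 21 genes in each of the 3 N_P (blue) and 3 T_P (red) libraries on a log axis, with a bar at the mean of each group. Granule, receptor and cycle genes are higher in every T_P library, and lymphocyte, macrophage, globin and MHC class II genes are lower in every one.

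The oxidase that produces superoxide in phagocytes moved unevenly. Of 9 tested genes, 7 were called higher and 2 lower (median log2 fold change 1.21; 7 and 2 under median-of-ratios scaling). The membrane subunits Cybb and Cyba rose by 2.44 and 1.21, and the cytosolic subunits Ncf1 and Ncf4 by 2.49 and 2.10, while the proton channel gene Hvcn1 (−1.39), which B cells also express, and the chaperone gene Cybc1 (−0.97) fell. Leukotriene genes rose: Alox5, 5-lipoxygenase, measured 143, 157 and 136 TPM in T_P and 5.96, 5.98 and 6.40 TPM in N_P (log2 fold change 4.36 ± 0.14, adjusted p = 8.29e-12), and Alox5ap, Lta4h and the receptor Ltb4r1 rose by 4.09, 2.56 and 4.64. The prostaglandin branch was mixed, with Ptgs1 (1.35) and Ptges (1.08) higher, Hpgds (−1.83) and the degrading enzyme gene Hpgd (−2.36) lower, and Ptgs2 under the filter. In the 19 tested eicosanoid genes 11 were called higher and 4 lower (median log2 fold change 1.08; 11 and 4 under median-of-ratios scaling).

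Receptors and transcription factors of granulopoiesis moved in both directions. Cebpe, the C/EBP factor of late granule maturation, measured 219.7, 210.0 and 206 TPM in T_P and 4.72, 6.46 and 4.13 TPM in N_P (log2 fold change 5.14 ± 0.32, adjusted p = 2.38e-09). Cebpd and Cebpb rose by 3.10 and 3.04, Cebpa by 1.20, Gfi1, a repressor needed for neutrophils, by 1.92, and Spi1, which encodes PU.1, by 2.05. Irf8, which favours monocytes and dendritic cells and is abundant in B cells, measured 62.8, 51.3 and 60.4 TPM in T_P and 235, 224 and 217 TPM in N_P and fell (log2 fold change −1.94 ± 0.08, adjusted p = 8.46e-11). The receptor chains Csf2ra and Csf2rb rose by 2.26 and 3.12 (Csf2rb has a near copy, Csf2rb2, at 2.80). Socs3, the feedback inhibitor of STAT3 signalling, rose from 31.3 ± 3.37 TPM in N_P to 94.5 ± 14.4 in T_P (1.56), and Stat5a fell by 0.74 on the log2 scale. Of 30 genes of this list tested, 18 were called higher and 8 lower (median log2 fold change 1.24; 22 and 3 under median-of-ratios scaling).

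Genes used to describe suppressive myeloid cells did not move as a block. Nos2, inducible nitric oxide synthase, measured 6.90, 14.6 and 11.3 TPM in T_P and 0, 0.04 and 0.06 TPM in N_P (log2 fold change 3.47 ± 0.28, adjusted p = 4.67e-08). Arg1, arginase 1, measured 0.41, 0.26 and 0.64 TPM in T_P and 0.15, 0 and 0.32 TPM in N_P, with overlapping groups and no call (log2 fold change 0.31 ± 0.60, adjusted p = 0.657). Its mitochondrial relative Arg2 rose from 14.9 ± 2.73 TPM in N_P to 77.6 ± 2.97 in T_P (2.32), Wfdc17 by 4.53 and Vegfa, the angiogenic factor, by 3.40. Cd84 was not called (−0.04) but was called higher under median-of-ratios scaling (0.45), and Il10 was under the filter. Of 22 such genes tested, 14 were called higher and 3 lower (median log2 fold change 1.82; 18 and 2 under median-of-ratios scaling).

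Transcripts of eosinophil and basophil granules rose by amounts near those of neutrophil granules. Epx, eosinophil peroxidase, measured 40.0, 80.8 and 60.6 TPM in T_P and 0.05, 0.24 and 0.17 TPM in N_P (log2 fold change 5.68 ± 0.34, adjusted p = 1.77e-09). Prg2, major basic protein, rose from 4.95 ± 1.42 TPM in N_P to 521 ± 154 in T_P (6.44). Mcpt8, a basophil protease, measured 169.5, 236 and 197 TPM in T_P and 1.80, 4.09 and 3.91 TPM in N_P (log2 fold change 5.60 ± 0.35, adjusted p = 2.38e-09), and Prss34, also a basophil protease, rose by 5.95. Ear1 and Ear6, ribonucleases of a multicopy family whose reads can be exchanged, rose by 6.16 and 5.50. Ccr3, the eotaxin receptor, measured 9.80, 7.94 and 9.44 TPM in T_P and 21.4, 24 and 20.5 TPM in N_P and fell (log2 fold change −1.19 ± 0.22, adjusted p = 1.70e-04), and Il5ra, the receptor of the eosinophil growth factor, fell from 3.73 to 1.38 TPM (−1.0). The mast cell proteases Mcpt4, Cma1 and Tpsb2 fell by 1.55, 1.82 and 0.98 on the log2 scale, while Cpa3, Fcer1a and Ms4a2, shared by basophils and mast cells, rose by 2.78, 2.17 and 2.0. Of 24 tested genes of the list, 17 were called higher and 5 lower (median log2 fold change 2.09; 18 and 5 under median-of-ratios scaling), and the list held 0.198% ± 0.0402 of TPM in T_P and 0.015% ± 0.00167 in N_P.

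Stem and progenitor genes rose in part. Kit, the receptor of stem cell factor, measured 13.8, 19.5 and 15.5 TPM in T_P and 5.32, 5.42 and 7.58 TPM in N_P (log2 fold change 1.28 ± 0.14, adjusted p = 1.15e-06). Cd34 rose from 1.33 ± 0.137 TPM in N_P to 7.14 ± 0.901 in T_P (1.80), Erg by 3.86, Gata2 by 1.59 and Hoxa9 by 1.61. Cd27, Cd48 and Slamf1, which lymphocytes also carry, fell by 3.0, 1.54 and 2.24 on the log2 scale, and Mecom was under the filter. Of 21 tested, 11 were called higher and 7 lower (median log2 fold change 0.85; 13 and 6 under median-of-ratios scaling).

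Erythroid genes moved in both directions. Klf1, the erythroid master regulator, measured 22.9, 14.7 and 11.8 TPM in T_P and 4.90, 7.36 and 5.28 TPM in N_P (log2 fold change 1.32 ± 0.26, adjusted p = 3.42e-04). Gata1 rose from 5.95 ± 1.19 TPM in N_P to 12.9 ± 4.33 in T_P (0.97), and the membrane gene Rhag by 1.20. Hbb-bs, adult beta globin, measured 221, 279.9 and 112 TPM in T_P and 588, 761 and 1454 TPM in N_P and fell (log2 fold change −2.18 ± 0.51, adjusted p = 0.0014), as did Alas2, which starts haem synthesis in red cells (−1.45, a call lost without T_P library 43, at −1.20, without N_P library 38, at −1.09, and under median-of-ratios scaling, at −1.06). The 4 adult globin genes, near-identical within each pair, together held 0.0701%, 0.0819% and 0.0331% of TPM in T_P and 0.166%, 0.214% and 0.409% in N_P. Of 40 tested erythroid genes, 19 were called higher and 8 lower (median log2 fold change 0.47; 24 and 7 under median-of-ratios scaling). Of 23 megakaryocyte genes, 13 were not called, 6 rose and 4 fell (9 and 3 under median-of-ratios scaling). Of all tested genes 18.9% were called higher and 50.3% lower, and 32.3% and 30.5% under that scaling. Both lists held smaller shares of fallers than all tested genes, and the share of megakaryocyte genes that rose was near that of all tested genes. Pf4, platelet factor 4, had 13.9 TPM in T_P and 21.3 in N_P with no call, and the risers included Nfe2 (3.77) and Selp (3.14), P-selectin.

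Monocyte genes moved in both directions. Ccr2, which brings classical monocytes out of the marrow, rose from 26.2 ± 3.80 TPM in N_P to 63 ± 14.3 in T_P (1.22), Ly6c2 by 1.16, F13a1 by 3.03 and Fn1 by 2.14. Nr4a1, the factor of non-classical monocytes, measured 10.5, 11.4 and 16.5 TPM in T_P and 40.9, 34.6 and 45.2 TPM in N_P and fell (log2 fold change −1.59 ± 0.17, adjusted p = 8.73e-07), and Ace, Cd300e and Treml4 fell by 1.77, 1.75 and 0.75 on the log2 scale, though the call of Treml4 was lost under median-of-ratios scaling (−0.27). Cx3cr1 was not called (0.06). Of 24 tested, 12 were called higher and 11 lower (median log2 fold change 0.41; 12 and 7 under median-of-ratios scaling). Of all tested genes 18.9% were called higher and 50.3% lower, and 32.3% and 30.5% under that scaling. The counts called lower were thus near the shares of all tested genes.

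Macrophage and dendritic cell genes were lower. Spic, the factor of red pulp macrophages, measured 13, 12.1 and 9.30 TPM in T_P and 48.8, 70.2 and 69.6 TPM in N_P (log2 fold change −2.35 ± 0.17, adjusted p = 9.28e-09). Hmox1, haem oxygenase 1, which opens the haem ring, fell from 418 ± 61.5 TPM in N_P to 108 ± 9.34 in T_P (−1.94), and the phosphatidylserine receptors Timd4 and Mertk fell by 2.30 and 1.62 on the log2 scale. Slc40a1, the iron exporter ferroportin, measured 116, 117 and 116 TPM in T_P and 108, 126 and 112 TPM in N_P and was not called (log2 fold change 0.02 ± 0.18, adjusted p = 0.942), but was called higher under median-of-ratios scaling (0.50). The transporter gene Slc11a1 was not called (0.03) but was called higher under that scaling (0.52). The iron storage gene Ftl1 was called under neither scaling, and Bach1, the repressor that haem inactivates, was the member that rose (1.06). Of 27 genes of the red pulp list tested, 1 was called higher and 21 lower (median log2 fold change −1.62; 3 and 17 under median-of-ratios scaling). Marco, the scavenger receptor of marginal zone macrophages, measured 0.62, 0.42 and 0.81 TPM in T_P and 13.7, 11.2 and 14.8 TPM in N_P (log2 fold change −3.14 ± 0.25, adjusted p = 4.43e-08), and of 12 genes of that zone 7 fell while Msr1 (1.41) and Scarb1 (1.02) rose. Of all tested genes 50.3% were called lower and 18.9% higher, so the count of that zone was near these shares. Siglech, a marker of plasmacytoid dendritic cells, measured 1.87, 1.18 and 1.63 TPM in T_P and 12.5, 13.8 and 13.8 TPM in N_P (log2 fold change −2.50 ± 0.21, adjusted p = 5.93e-08). Among 30 dendritic cell genes 2 were called higher and 26 lower (median log2 fold change −1.33; 3 and 21 under median-of-ratios scaling). Itgax, which encodes CD11c, fell from 28.7 to 16.1 TPM (−0.80) and lost its call under median-of-ratios scaling (−0.33), Clec9a was not called, and Sirpa and Clec4a2, which other myeloid cells also express, rose by 1.73 and 2.34.

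T cell genes were lower almost throughout. Cd3e, a chain of the T cell receptor complex, measured 20.4, 16.3 and 22 TPM in T_P and 199, 195 and 185 TPM in N_P (log2 fold change −3.24 ± 0.15, adjusted p = 1.33e-10). The groups were separated by a wide gap in each of the co-receptor genes: Cd4 fell from 106 ± 8.21 TPM in N_P to 11.5 ± 2.37 in T_P (−3.10) and Cd8a from 64.1 ± 4.52 TPM in N_P to 7.41 ± 0.809 in T_P (−2.95). Genes of naive T cells were among the members with the largest falls, with Dapl1 at −3.66, Tcf7 at −3.29, Ccr7 at −3.05 and Lef1 at −2.85. Foxp3, the factor of regulatory T cells, measured 4.12, 4.18 and 4.29 TPM in T_P and 18.1, 16.9 and 15.9 TPM in N_P and fell by a smaller amount (log2 fold change −1.79 ± 0.15, adjusted p = 7.03e-08). Ctla4 and Icos fell by 1.39 and 1.80 on the log2 scale, and Il2ra, which encodes CD25, was not called (−0.47). Whether the fall of Foxp3 differs from that of Cd4 was not tested. Of 46 T cell genes, 0 were called higher and 43 lower (median log2 fold change −2.83; 2 and 41 under median-of-ratios scaling), and the list held 0.0881% ± 0.00594 of TPM in T_P and 0.378% ± 0.014 in N_P. Ncr1, the NK cell receptor NKp46, measured 7.80, 2.50 and 4.01 TPM in T_P and 41.4, 39.9 and 47.5 TPM in N_P (log2 fold change −3.03 ± 0.29, adjusted p = 2.28e-07), with library 26 the highest of T_P. Of 27 NK and cytotoxic genes, 0 were called higher and 26 lower (median log2 fold change −2.38; 1 and 26 under median-of-ratios scaling). Gzma, Prf1 and Ccl5, effector genes of cytotoxic cells, fell by 2.95, 2.74 and 2.96 on the log2 scale, Gzmb fell by 0.98, and Nkg7 was the tested member with no call.

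B cell genes were mostly lower, and plasma cell genes moved in both directions. Cr2, complement receptor 2 of follicular and marginal zone B cells, measured 22.4, 18.4 and 26 TPM in T_P and 271, 207 and 259 TPM in N_P (log2 fold change −3.41 ± 0.19, adjusted p = 6.84e-10). Ms4a1, which encodes CD20, measured 50.7, 50.7 and 72 TPM in T_P and 355, 330.0 and 303 TPM in N_P (log2 fold change −2.51 ± 0.19, adjusted p = 1.99e-08). Dtx1 and Fcer2a, abundant in mature B cells, fell by 3.36 and 2.97 on the log2 scale, and Pax5, which fixes the B cell programme, fell by 2.05. Of 39 tested, 3 were called higher and 35 lower (median log2 fold change −2.19; 3 and 34 under median-of-ratios scaling). Vpreb3, a gene of immature B cells, was not called (114 TPM in T_P and 124 in N_P), and the 3 risers, Fcer1g, Cd9 and Plac8, are also expressed by myeloid cells. Immunoglobulin genes held 1.94%, 2.31% and 2.0% of TPM in T_P and 4.44%, 4.73% and 4.14% in N_P. Jchain, which joins IgM and IgA chains, fell from 627 ± 73.5 TPM in N_P to 336 ± 27.8 in T_P (−0.90), and Prdm1, the factor of plasma cells, fell by 1.24 on the log2 scale. Secretory pathway genes of the same list rose, Xbp1 by 0.76, Sdf2l1 by 1.08 and Fkbp11 by 1.14. Of 22 plasma cell genes, 7 were called higher and 11 lower (median log2 fold change −0.30; 10 and 7 under median-of-ratios scaling), against 18.9% higher and 50.3% lower of all tested genes.

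**Figure D3:**
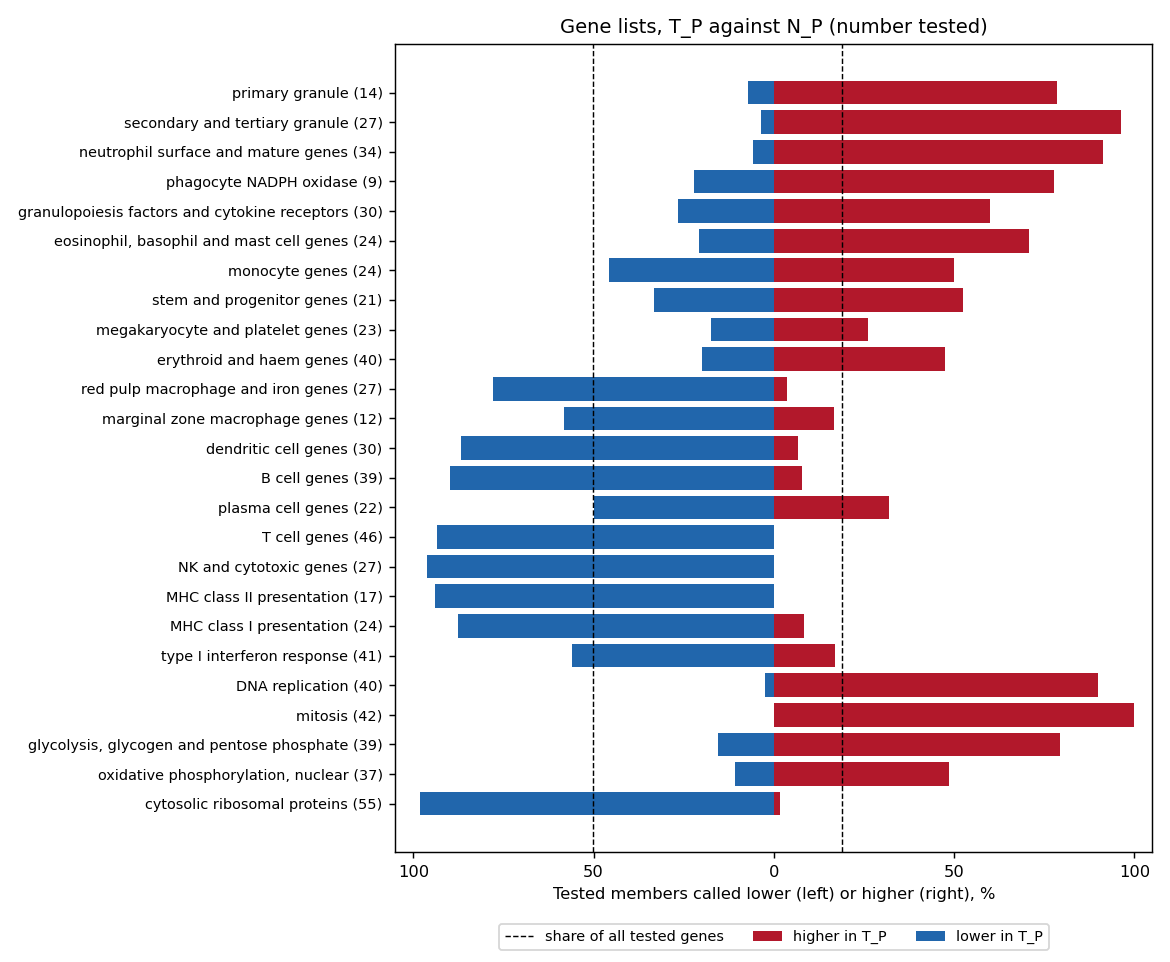
Percent of the tested members of each gene list that were called higher (red, right) or lower (blue, left) in T_P, with the number tested in brackets and dashed lines at the shares of all tested genes (18.9% higher, 50.3% lower). Mitosis and granule lists are mostly red, T cell, NK and MHC class II lists hold no red, and the ribosomal list holds a single riser.

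Checkpoint genes were mostly lower, with exceptions such as Vsir, Sirpa and Cd47. Pdcd1, which encodes PD-1, measured 1.45, 1.57 and 1.64 TPM in T_P and 5.89, 7.15 and 4.70 TPM in N_P (log2 fold change −1.42 ± 0.16, adjusted p = 1.59e-06). Its ligand gene Cd274, PD-L1, measured 7.28, 7.69 and 8.18 TPM in T_P and 25.9, 23.5 and 27.8 TPM in N_P (log2 fold change −1.62 ± 0.12, adjusted p = 1.72e-08), and Pdcd1lg2, PD-L2, fell by 1.49 on the log2 scale. The lymphocyte receptors Btla and Cd96 fell by 2.74 and 2.95, and Lag3, Tigit and Havcr2 fell from levels between 7.44 and 10.9 TPM. Vsir, which encodes VISTA, a checkpoint protein of myeloid cells, measured 315, 357 and 334 TPM in T_P and 90.1, 97.6 and 87.7 TPM in N_P and rose (log2 fold change 1.86 ± 0.12, adjusted p = 5.67e-09), as did the SIRP-alpha and CD47 genes (Sirpa 1.73, Cd47 0.69). Of 33 checkpoint genes, 7 were called higher and 24 lower (median log2 fold change −1.42; 7 and 24 under median-of-ratios scaling).

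Antigen presentation genes were lower. Cd74, the invariant chain of MHC class II, measured 1363, 1065 and 1435 TPM in T_P and 6842, 6831 and 6771 TPM in N_P (log2 fold change −2.41 ± 0.12, adjusted p = 2.48e-10). H2-Ab1 fell from 2582 ± 93.2 TPM in N_P to 531 ± 97.2 in T_P (−2.30), Ciita, the class II transactivator, fell by 2.29 on the log2 scale, and H2-Ob, a chain of the peptide-exchange regulator of B cells, fell by 2.84. Of 17 class II genes, 0 were called higher and 16 lower (median log2 fold change −2.29; 0 and 16 under median-of-ratios scaling), and the list held 0.356% ± 0.0536 of TPM in T_P and 1.69% ± 0.0248 in N_P. The exception was Rfxap, a subunit of the RFX complex (−0.30), which was called lower without T_P library 26 (−0.41) or N_P library 17 (−0.40). Class I had a smaller median: of 24 genes, 2 were called higher and 21 lower (median log2 fold change −1.19; 3 and 20 under median-of-ratios scaling). Nlrc5, the class I transactivator, measured 16.8, 13.8 and 16 TPM in T_P and 90.4, 93.7 and 86.2 TPM in N_P (log2 fold change −2.47 ± 0.10, adjusted p = 4.45e-11), B2m, beta-2 microglobulin, fell from 3070.2 ± 72.1 TPM in N_P to 1610.1 ± 57 in T_P (−0.93), and the chaperone genes Calr and Pdia3 rose by 0.53 and 0.28. Classical and non-classical H2 genes are similar in sequence, so reads can be exchanged among them.

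Class II promoters are shown because their shared X and Y boxes, bound by the RFX complex and NF-Y, are the textbook case of a common promoter grammar. CTAGCAAC, a core of the X box, occurred in 3 of 13 class II genes with a window (23.1%) and in 1.32% of all windows, and CCAAT, the Y-box core, in 11 of 13 (84.6%) and 37.4% of all windows. As for the granule genes, the list was counted by gene and the background by window. Both strands were searched, and these words were kept from a larger set. The 250 bases before the start of H2-Eb1 (chr17:34305617-34305866, + strand) and H2-Ob (chr17:34238655-34238904, + strand) carry both words, in capitals.
H2-Eb1: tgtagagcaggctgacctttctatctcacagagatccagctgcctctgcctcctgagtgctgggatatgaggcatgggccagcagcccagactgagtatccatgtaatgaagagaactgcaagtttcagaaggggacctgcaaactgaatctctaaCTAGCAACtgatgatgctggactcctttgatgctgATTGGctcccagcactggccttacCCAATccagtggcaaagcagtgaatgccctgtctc
H2-Ob: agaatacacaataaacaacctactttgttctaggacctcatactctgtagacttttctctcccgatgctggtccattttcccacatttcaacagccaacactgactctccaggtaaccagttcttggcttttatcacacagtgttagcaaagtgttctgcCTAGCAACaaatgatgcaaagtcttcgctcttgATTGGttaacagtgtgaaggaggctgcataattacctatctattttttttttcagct
The first capital stretch begins 94 bases before the start of H2-Eb1 and 90 bases before that of H2-Ob, and the CCAAT core, on either strand, follows it in each.

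Interferon-stimulated genes split. Slfn4, a Schlafen gene of myeloid cells, measured 714, 698 and 677 TPM in T_P and 39.8, 24.6 and 33.1 TPM in N_P (log2 fold change 4.40 ± 0.43, adjusted p = 3.63e-07), and the oligoadenylate synthetase genes Oas2, Oas3 and Oas1g, copies of a family that can share reads, rose by 1.86, 1.63 and 1.71. Ifit3, an antiviral effector gene, measured 3.01, 2.09 and 2.20 TPM in T_P and 9.84, 8.48 and 13.5 TPM in N_P and fell (log2 fold change −1.74 ± 0.32, adjusted p = 2.07e-04), as did Zbp1 (−1.51) and Ifi44 (−1.61). Isg15, Rsad2 and Ifih1 were not called, with log2 fold changes of −0.11, −0.08 and −0.01. Of 41 tested, 7 were called higher and 23 lower (median log2 fold change −0.66; 13 and 19 under median-of-ratios scaling). Of all tested genes 18.9% were called higher and 50.3% lower, and 32.3% and 30.5% under median-of-ratios scaling. The interferon-inducible GTPase genes Tgtp1 and Tgtp2, near-identical copies, were among the 12 largest falls (−3.29 and −3.32).

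Cell-cycle genes were higher, and most among those of mitosis. Mki67 measured 128, 144 and 115 TPM in T_P and 11.8, 16.5 and 9.70 TPM in N_P (log2 fold change 3.28 ± 0.29, adjusted p = 9.64e-08). Ube2c, which loads ubiquitin for the anaphase-promoting complex, measured 217, 191 and 192 TPM in T_P and 14.6, 17.4 and 16.2 TPM in N_P (log2 fold change 3.56 ± 0.19, adjusted p = 5.10e-10), and Cdkn3, a phosphatase of CDK1, rose by 4.02. Of 42 mitosis genes, 42 were called higher and 0 lower (median log2 fold change 2.78; 42 and 0 under median-of-ratios scaling). DNA replication genes had a smaller median: of 40, 36 were called higher and 1 lower (median log2 fold change 1.20; 39 and 1 under median-of-ratios scaling). Rrm2, a ribonucleotide reductase subunit, rose from 13.8 ± 3.90 TPM in N_P to 134 ± 8.91 in T_P (3.21), Mcm4 by 0.61 and Pcna by 0.67, while Pold1, a subunit of polymerase delta, fell by 0.94 on the log2 scale and Cdt1, which licenses origins, was not called (−0.05) except under median-of-ratios scaling, where it was called higher (0.43). Among cyclins and brakes the paralogues parted: Ccnd3 measured 554, 586 and 565 TPM in T_P and 175, 185 and 156 TPM in N_P and rose (log2 fold change 1.72 ± 0.09, adjusted p = 4.56e-10), Ccnd2 measured 13.8, 13.4 and 15.2 TPM in T_P and 67.5, 71.6 and 66.8 TPM in N_P and fell (log2 fold change −2.20 ± 0.11, adjusted p = 4.29e-10), and the inhibitor genes Cdkn2d and Cdkn2c rose by 1.88 and 1.84. In that list of 21, 6 were called higher and 11 lower (median log2 fold change −0.36; 8 and 7 under median-of-ratios scaling), against 18.9% higher and 50.3% lower of all tested genes.

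Promoters of mitosis genes are shown because all tested members of that list moved the same way. The word TTTGAA, the core of the cell-cycle homology region, occurred in 27 of 35 mitosis genes with a window (77.1%), in 5 of 34 DNA replication genes (14.7%) and in 17.9% of all windows. Lists were again counted by gene and the background by window. CCAAT, kept from a larger set as stated for class II, occurred in 26 of the 35 (74.3%) and in 37.4% of all windows. The E2F-type word TTTCGC occurred in 13 of 34 DNA replication genes (38.2%), in 3 of 35 mitosis genes (8.57%) and in 4.01% of all windows. The 250 bases before the start of Ube2c (chr2:164769679-164769928, + strand) and Cdc20 (chr4:118437344-118437593, − strand), an activator of the anaphase-promoting complex that rose by 2.53, follow with TTTGAA and CCAAT, on either strand, in capitals.
Ube2c: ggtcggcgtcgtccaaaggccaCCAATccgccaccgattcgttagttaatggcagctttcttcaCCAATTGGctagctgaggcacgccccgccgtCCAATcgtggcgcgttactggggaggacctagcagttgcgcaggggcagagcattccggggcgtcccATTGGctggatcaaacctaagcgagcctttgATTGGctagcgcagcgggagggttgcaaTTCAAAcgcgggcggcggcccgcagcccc
Cdc20: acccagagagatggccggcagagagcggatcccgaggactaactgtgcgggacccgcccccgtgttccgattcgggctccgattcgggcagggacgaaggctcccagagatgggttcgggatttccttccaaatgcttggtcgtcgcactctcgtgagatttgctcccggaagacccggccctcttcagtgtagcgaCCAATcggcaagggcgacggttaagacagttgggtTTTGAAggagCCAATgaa
The match to TTTGAA begins 29 bases before the start of Ube2c and 18 bases before that of Cdc20.

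Sugar metabolism genes rose. G6pdx, which opens the pentose phosphate pathway and feeds NADPH to the oxidase, measured 557, 651 and 587 TPM in T_P and 48.9, 46.7 and 44 TPM in N_P (log2 fold change 3.65 ± 0.11, adjusted p = 4.36e-12). Slc16a3, a lactate exporter, rose from 11.5 ± 3.08 TPM in N_P to 191 ± 15.9 in T_P (3.98). Isoforms moved in opposite directions: Hk3 (3.88), Pygl, the liver-type glycogen phosphorylase (3.89), and Eno1 (1.18) rose, whereas Pygb, the brain-type phosphorylase (−1.38), and Eno3 (−1.89) fell. Of 39 tested, 31 were called higher and 6 lower (median log2 fold change 1.29; 33 and 3 under median-of-ratios scaling). Cholesterol synthesis genes were mixed, with Fdps (2.21) and Mvd (1.41) higher, and the efflux genes Abca1 (−1.19) and Abcg1 (−1.09) and their regulator Nr1h3 (−1.75) lower. Of 28 genes there, 12 were called higher and 9 lower (median log2 fold change 0.28; 19 and 6 under median-of-ratios scaling). Of all tested genes 18.9% were called higher and 50.3% lower, and 32.3% and 30.5% under that scaling. Under both scalings the cholesterol list thus held a larger share of risers and a smaller share of fallers than all tested genes.

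Genes of the ribosome were lower under both scalings, by smaller amounts and with fewer calls under median-of-ratios scaling. Those of the mitochondrial genome were lower too, but their share of calls under that scaling was near that of all tested genes. Of 55 cytosolic ribosomal protein genes, 1 was called higher and 54 lower (median log2 fold change −0.92; 2 and 44 under median-of-ratios scaling), and they held 5.09% ± 0.375 of TPM in T_P and 9.81% ± 0.29 in N_P. Rps27 fell from 7961 ± 379 TPM in N_P to 2300.2 ± 294 in T_P (−1.80), and its paralogue Rps27l rose by 0.51. None of the 13 mitochondrially encoded genes rose and 9 fell, and 4 were called lower under median-of-ratios scaling. Of all tested genes 50.3% were called lower, and 30.5% under that scaling. Of 37 nuclear genes of the respiratory chain, 18 were called higher and 4 lower (median log2 fold change 0.15; 34 and 1 under median-of-ratios scaling). Ndufc1, a complex I subunit, rose by 1.15 and Ndufs3 fell by 0.85 on the log2 scale.

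Cytokine and chemokine genes moved in both directions. Il1b, interleukin-1 beta, measured 428, 481 and 472 TPM in T_P and 99, 77.4 and 125 TPM in N_P (log2 fold change 2.21 ± 0.28, adjusted p = 4.48e-06), its decoy receptor gene Il1r2 rose by 4.22, its antagonist Il1rn by 2.54 and Il36g by 3.42. The lymphocyte receptor genes Il7r, Il2rb and Il27ra fell by 2.45, 2.78 and 2.90 on the log2 scale. Il17ra, a receptor subunit of the IL-17 family, was not called (−0.02) but was called higher under median-of-ratios scaling (0.47). Of 34 interleukin genes, 13 were called higher and 15 lower (median log2 fold change 0.00; 17 and 14 under median-of-ratios scaling). Of 35 chemokine genes, 6 were called higher and 22 lower (median log2 fold change −0.97; 6 and 18 under median-of-ratios scaling), with Ccr1 (2.97), Ccl6 (1.35) and Ccl9 (1.52) up beside the neutrophil receptors and Ccr6 (−3.17), Cxcr5 (−2.74) and Xcl1 (−2.71) down. Both counts stand against 18.9% higher and 50.3% lower of all tested genes.

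Most genes that mark other tissues were under the filter. Of 22 epithelial genes that could mark carcinoma cells, 9 passed the filter, 4 of these rose and 3 fell (median log2 fold change 0.59; 5 and 3 under median-of-ratios scaling). Of all tested genes 18.9% were called higher and 50.3% lower, and 9 genes are few to set against these shares. The list held 0.0705% ± 0.00397 of TPM in T_P and 0.0286% ± 0.00147 in N_P, mostly through Cd24a, a surface gene that granulocytes and B cells also express, which rose from 246 to 661 TPM (1.42). Cdh1, E-cadherin, rose from 1.54 to 3.79 TPM and the keratin gene Krt18, near the filter, rose by 0.65. Krt5, Krt8, Krt14 and Krt19 were under the filter, and Epcam measured 1.26, 0.68 and 0.84 TPM in T_P and 3.65, 2.51 and 2.85 TPM in N_P and fell (log2 fold change −1.06 ± 0.17, adjusted p = 5.08e-05). Of 24 pancreatic genes 2 passed the filter, Reg2, which was not called, and Cela1, which fell by 1.58 on the log2 scale. Of 17 stromal and endothelial genes tested, 1 was called higher and 10 lower (median log2 fold change −0.72; 2 and 7 under median-of-ratios scaling), against 18.9% higher and 50.3% lower of all tested genes.

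Under code I the tumour effect differed from that under code P in 3 of the 16635 genes (0.018%), none higher and 3 lower under P, with 1146 at an unadjusted p under 0.05. The count became 11 without N_I library 18 and 0 without T_I library 8 or T_I library 12. Mir6236, 1 of the 3 genes, passed the filter only through the 3 T_I libraries. It was therefore not tested when a T_I library was left out, and its p-value is no separate support. The tumour effects under P and I rest on separate libraries. Mir6236, a microRNA precursor row, was at 0 in all libraries of N_P, T_P and N_I and at 102 ± 23.7 TPM in T_I (difference of log2 fold changes −6.66 ± 0.19, adjusted p = 3.66e-11). The predicted gene Gm30085 was at 0 in N_P and N_I, at 5.64 TPM in T_I and at 1.18, 0.47 and 0.44 TPM in T_P. Outside T_I only T_P library 26 reached 1 TPM in Gm30085. It too passed the filter only with the T_I libraries, and its p-value is no separate support. Ahsa2, a co-chaperone gene of HSP90, measured 24.2, 25.2 and 26.3 TPM in T_P and 69.3, 73.4 and 58.9 TPM in N_P, with 23.4 ± 3.19 TPM in T_I and 27.6 ± 3.94 in N_I (difference of log2 fold changes −1.15 ± 0.17, adjusted p = 0.0469). Its N_P mean stood above its N_I mean, and its T_P and T_I means lay nearer to each other. Hsph1 and Dnajb1, also chaperone genes, were at 198 ± 39.8 and 70.2 ± 9.84 TPM in N_P against 51 ± 6.94 and 29.9 ± 4.85 in N_I. In T_P they were at 41.5 ± 1.79 and 25.3 ± 0.558 TPM, and in T_I at 22.1 ± 8.61 and 21.5 ± 2.40. The difference in effect was called for neither Hsph1 (difference of log2 fold changes −0.98, adjusted p = 0.543) nor Dnajb1 (−0.98 ± 0.17, adjusted p = 0.151). No member of the 44 lists was called in this contrast. The list medians were 2.78 under P and 2.53 under I for mitosis, and of the 44 lists they were furthest apart for erythroid genes, at 0.47 and −0.09.

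Under code GC the tumour effect was different in 6540 genes (39.3%), 1355 (8.15%) higher and 5185 (31.2%) lower under P. No library is shared with the comparison under GC either. With median-of-ratios scaling the split was 3270 higher and 2380 lower, so the balance of directions in this contrast turned with the scaling. Prok2 was at 5.47 ± 2.28 TPM in T_GC, 0.00333 ± 0.00577 in N_GC and 139 ± 29.4 in T_P (difference of log2 fold changes 4.37 ± 0.39, adjusted p = 2.79e-06). Nos2 reached 0.21 ± 0.207 TPM in T_GC and 10.9 ± 3.85 in T_P (difference of log2 fold changes 3.34 ± 0.40, adjusted p = 2.58e-05). Epx had 4.96 ± 3.54 TPM in T_GC against 60.4 ± 20.4 in T_P (difference of log2 fold changes 3.30 ± 0.48, adjusted p = 1.16e-04).

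Lists differed in how many members were called in that contrast, and some counts moved with the scaling. Of the 14 primary granule genes, 10 had a larger tumour effect under P and 1 a smaller one (11 and 1 under median-of-ratios scaling), with medians of 3.90 under P and 2.11 under GC. Of the 27 secondary and tertiary granule genes, 7 were higher and 4 lower under P (9 and 1), with medians of 4.84 and 4.90. Ngp, a member, was lower in both groups under GC than under P and averaged 6033 ± 878 TPM in T_GC and 27 ± 14.4 in N_GC, against 19627 ± 379 in T_P and 401 ± 171 in N_P. In mitosis 5 of 42 were higher under P and none lower, and 32 were higher under median-of-ratios scaling. In DNA replication 4 of 40 were higher and 1 lower, and 26 and 0 under that scaling. Of all 16635 tested genes 8.15% were higher and 31.2% lower under P, and 3270 and 2380 genes under median-of-ratios scaling. Without that scaling, the counts of mitosis and DNA replication genes higher under P were near the share of all tested genes. The glycolysis list had 27 of 39 higher under P (30 under that scaling). T cell genes had 40 of 46 lower under P (39), B cell genes 35 of 39 (30), NK genes 25 of 27 (24) and class II genes 16 of 17 (15), while ribosomal protein genes had 50 of 55 lower, but 10 under that scaling. Those 10 of 55 were near the share of all tested genes lower under that scaling, 2380 of 16635. Medians of T cell genes were −2.83 under P and −1.05 under GC. Red pulp genes had medians of −1.62 and 0.31, interferon genes −0.66 and 0.59, and dendritic cell genes −1.33 and 0.03, against medians of all tested genes of −0.41 and −0.09.

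**Figure D4:**
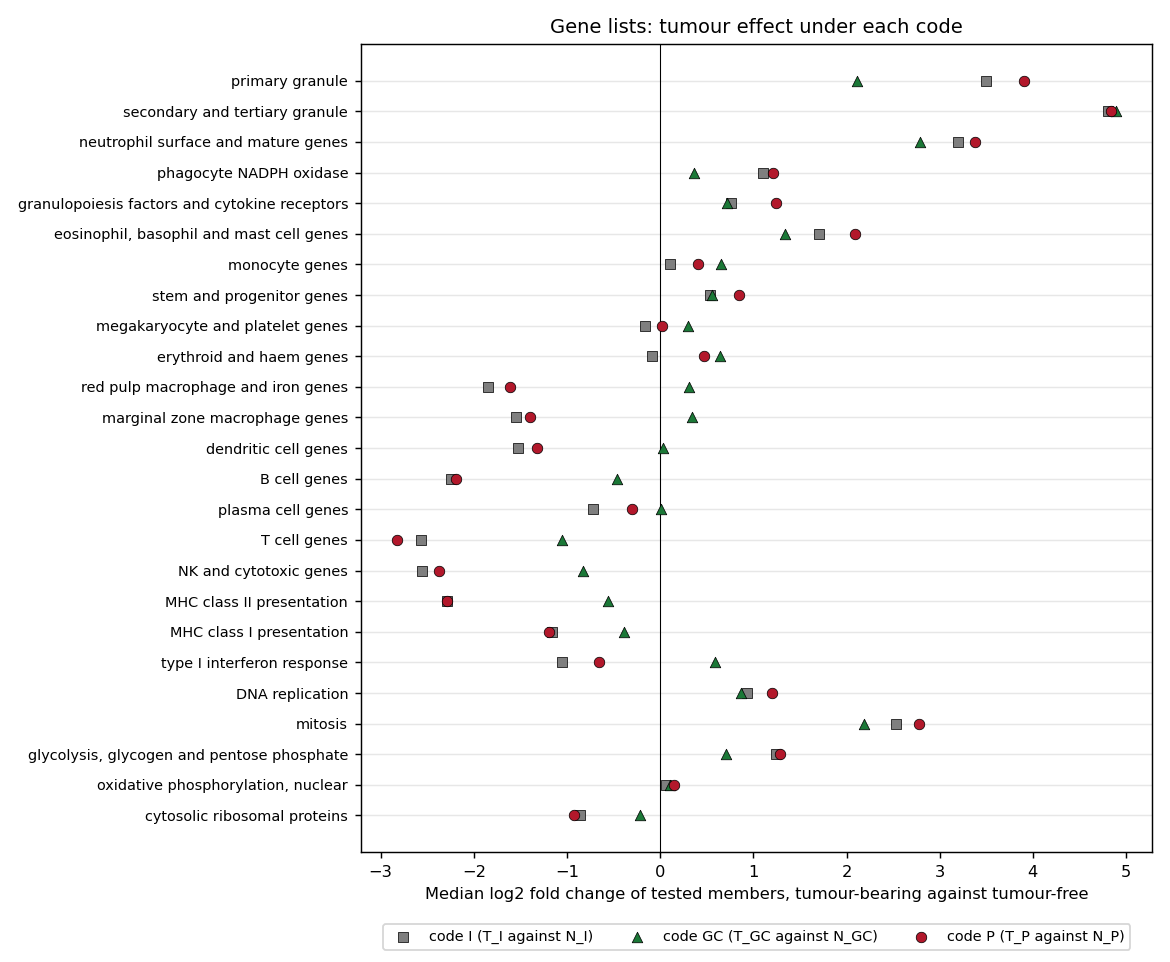
Median log2 fold change of the tested members of each list, tumour-bearing against tumour-free, under code P (red circles), I (grey squares) and GC (green triangles). P and I lie furthest apart for erythroid genes, GC is near both for secondary granule genes at 4.80 to 4.90, where Ngp for example is lower in both GC groups than in the P groups, and it lies nearer 0 for lymphocyte, macrophage and presentation lists.

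**Figure D5:**
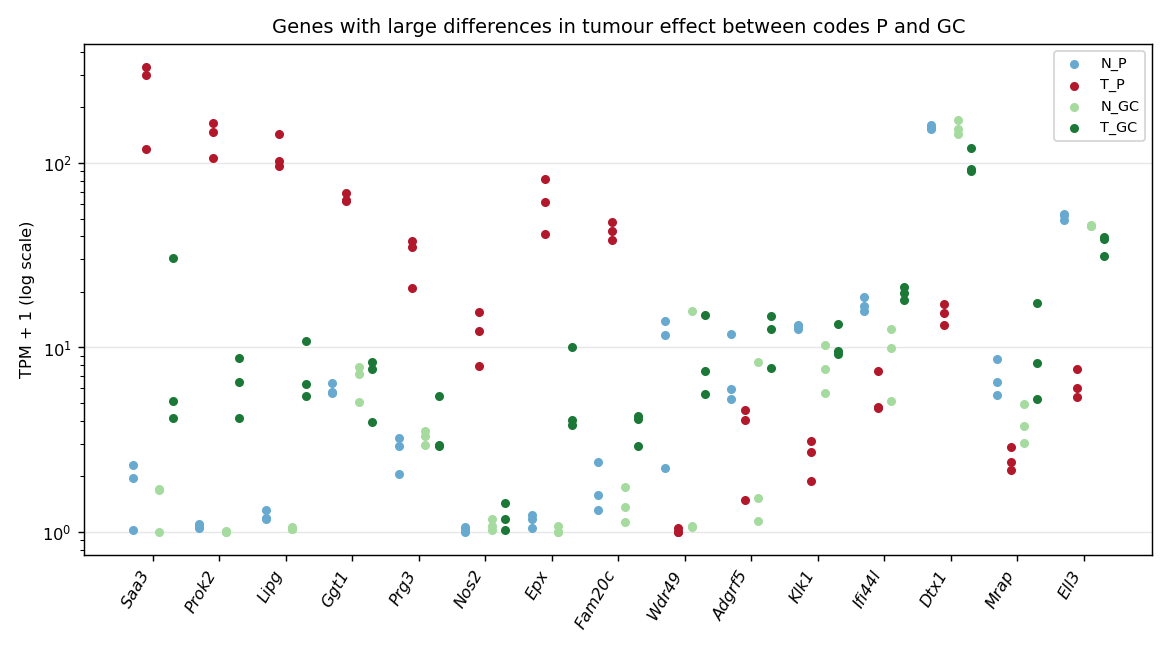
TPM + 1 on a log axis in each library of N_P, T_P, N_GC and T_GC for 15 genes with large differences in tumour effect between codes P and GC. Saa3 through Fam20c are highest in T_P, whereas Klk1, Ifi44l, Dtx1, Mrap and Ell3 are lowest there, and Wdr49 and Adgrf5 scatter widely within groups.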

How the data were processed

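RNA of mouse splenocytes was sequenced in 18 libraries, 3 in each of 6 groups. The authors deposited TPM per gene with 2 decimals, made with fastp and RSEM on GRCm39, per the submitters' processing notes. Versions and read depth are not given in the sources used here. Of 56876 deposited rows, 2863 carried no symbol. A gene was tested if 3 or more of the 18 libraries reached 1 TPM, which 16635 did.

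Log2(TPM + 1) was fitted as 6 group means over the 18 libraries with limma 3.58.1 and an intensity trend in R 4.3.3 (12 residual degrees of freedom, two-sided, Benjamini-Hochberg over all tested genes, adjusted p 0.05). The tumour effect under P was also set against that under I and under GC as differences of log2 fold changes. Shares of TPM were tested by exact permutation over 3 against 3 libraries. The fit was tested on simulated data.

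Results were recomputed with median-of-ratios scaling, with 94 neutrophil-list genes taken out of the TPM total, with a pseudocount of 0.1, with a filter of 5 TPM or none, with the libraries of a comparison alone, and with each library left out. The members and lists were chosen with earlier results of these data known, and lists share members. Named genes are the 12 largest rises and falls with at least 5 TPM in the higher group and no overlap, in each list the 5 largest changes each way and the 3 most abundant members with and without regard to a call, a fixed set of markers, the 15 most abundant genes of each group, genes at 0 in one group, and the 8 largest differences each way between codes. Other list members were named after their values were seen, and a few genes that met the rule are not reported here. Promoter windows came from RefSeq on GRCm38.p6, and no coordinates from the deposited table were used.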

Additional observations from a re-analysis of the deposited data

Results flagged for a closer look

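The tumour effects under P and I differed in 3 genes by the test of the difference. Mir6236 was listed at 0 in the 3 T_P, 3 N_P and 3 N_I libraries and measured 97.2, 127.9 and 81.4 TPM in T_I (difference of log2 fold changes −6.66, adjusted p = 3.66e-11, limma). It passed the filter only through T_I, so this p-value is no separate support. Gm30085 averaged 0.697 ± 0.419 TPM in T_P, 0 ± 0 in N_P, 5.64 ± 1.0 in T_I and 0 ± 0 in N_I (difference −1.98). It too passed the filter only with the T_I libraries, since outside them only T_P library 26 reached 1 TPM. Its p-value is therefore no separate support either. Ahsa2, which encodes a relative of the HSP90 co-chaperone AHA1, averaged 25.2 ± 1.06 TPM in T_P, 67.2 ± 7.51 in N_P, 23.4 ± 3.19 in T_I and 27.6 ± 3.94 in N_I (difference −1.15). Its N_P libraries stood above both the T_P and the N_I libraries. The calls of Gm30085 and Ahsa2 were lost under some settings, with adjusted p up to 0.322 and 0.215.

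Between P and GC the difference was tested for all genes, and the 15 genes described here, 8 higher and 7 lower under P, had large differences. Myeloid genes were among those higher under P. Saa3, an acute-phase gene that macrophages also express, averaged 249 ± 114 TPM in T_P, 0.763 ± 0.66 in N_P, 12.2 ± 14.9 in T_GC and 0.47 ± 0.407 in N_GC (difference 4.49). Lipg, endothelial lipase, averaged 113 ± 25.3 TPM in T_P, 0.23 ± 0.0781 in N_P, 6.53 ± 2.87 in T_GC and 0.05 ± 0.0173 in N_GC (difference 3.74). Ggt1, gamma-glutamyltransferase, averaged 64 ± 3.63 TPM in T_P, 4.92 ± 0.399 in N_P, 5.62 ± 2.36 in T_GC and 5.70 ± 1.45 in N_GC (difference 3.52). Fam20c, the Golgi kinase of secreted proteins, averaged 42 ± 4.73 TPM in T_P, 0.763 ± 0.551 in N_P, 2.76 ± 0.71 in T_GC and 0.417 ± 0.313 in N_GC (difference 3.23). The eosinophil granule gene Prg3 averaged 30.2 ± 8.93 TPM in T_P, 1.74 ± 0.609 in N_P, 2.77 ± 1.44 in T_GC and 2.26 ± 0.273 in N_GC (difference 3.35). Prok2, Nos2 and Epx, whose levels are given above, differed by 4.37, 3.34 and 3.30.

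Genes of B cells were among those lower under P. Dtx1, a regulator of Notch signalling in marginal zone B cells, averaged 14.3 ± 1.95 TPM in T_P, 155 ± 4.04 in N_P, 100.5 ± 16.8 in T_GC and 155 ± 14.5 in N_GC (difference −2.73). Ell3, an elongation factor of B cells, averaged 5.37 ± 1.19 TPM in T_P, 50.4 ± 1.81 in N_P, 35.6 ± 4.62 in T_GC and 44.8 ± 0.471 in N_GC (difference −2.70). Klk1, a kallikrein, averaged 1.58 ± 0.633 TPM in T_P, 12 ± 0.299 in N_P, 9.73 ± 2.32 in T_GC and 6.86 ± 2.29 in N_GC (difference −2.83). Ifi44l, an interferon-induced gene, averaged 4.63 ± 1.55 TPM in T_P, 16.1 ± 1.52 in N_P, 18.8 ± 1.55 in T_GC and 8.23 ± 3.82 in N_GC (difference −2.83), and Mrap, an accessory protein of melanocortin receptors, 1.48 ± 0.369 TPM in T_P, 5.91 ± 1.62 in N_P, 9.34 ± 6.35 in T_GC and 2.89 ± 0.965 in N_GC (difference −2.72). Wdr49 differed by −4.51, with 1.21, 10.7 and 12.9 TPM in N_P and 0.06, 0.08 and 14.7 in N_GC. Adgrf5, a receptor of endothelial cells, differed by −3.45, with 0.52, 7.37 and 0.15 TPM in N_GC. The libraries within a group were far apart in Wdr49 and Adgrf5, and both calls were lost under several settings, with adjusted p up to 0.0947 and 0.117.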

How the results depend on the processing

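The T_P and N_P contrast kept its count of called genes within 1.5 times under every alternative, but the split by direction moved with the scaling: with median-of-ratios scaling 5376 were higher and 5071 lower. Leaving out 1 library at a time gave 10806 to 10974 called genes, 2923 to 3009 higher and 7797 to 8051 lower. Under P minus I, 1 gene was called, lower under P, with a pseudocount of 0.1 or with only the libraries of the comparison. Leaving out single libraries gave 0 to 11 genes there, 0 to 8 higher and 0 to 4 lower. Mir6236 was not tested where a T_I library was left out. Under P minus GC, 3270 genes were higher and 2380 lower with median-of-ratios scaling, and 2415 and 2840 with TPM recomputed without the neutrophil lists. Leaving out single libraries gave 5681 to 7013 there, 1144 to 1515 higher and 4501 to 5715 lower. Beyond the changed libraries, genes or scaling themselves, the cause was not tested.

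Of 274 named genes, 261 kept their call and direction under median-of-ratios scaling, 273 with a pseudocount of 0.1 and 273 with no filter. All 262 that passed a filter of 5 TPM kept theirs, as did 229 of 235 without the neutrophil lists. Genes that had no call and a value at or below 0 became called higher under median-of-ratios scaling: Cd84 at 0.45, Cdt1 at 0.43, Il17ra at 0.47, Nkg7 at 0.38 and S100a4 at 0.38. Under the same scaling Ctsc, Slc11a1 and Slc40a1 gained a call and Alas2, Cxcr4, Itgax, Treml4 and Wdr49 lost theirs. Without the neutrophil lists, Cd84 was called higher at 0.33, Cdt1 at 0.32 and Il17ra at 0.36. No paired analysis was possible because T_P and N_P share no replicate number. TPM hold no depth, so a value near 0 cannot be told from too few reads, and 3 libraries in a group limit the precision.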

Other observations

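Clock genes moved in both directions. Nr1d2, a repressor of the clock loop, measured 2.63, 2.18 and 3.24 TPM in T_P and 16.1, 14.8 and 14.5 TPM in N_P (log2 fold change −2.14 ± 0.15, adjusted p = 7.33e-09). Tef and Dbp, PAR-type transcription factors driven by the clock, fell by 2.11 and 1.66 on the log2 scale. Nfil3, which acts against them on the same sites and is also induced in activated leukocytes, measured 48.9, 56.2 and 53.1 TPM in T_P and 5.55, 4.42 and 5.45 TPM in N_P and rose (log2 fold change 3.13 ± 0.14, adjusted p = 1.11e-10). Arntl, the activator of the loop, was not called (−0.65). Of 18 clock genes tested, 3 were called higher and 11 lower (median log2 fold change −0.89; 5 and 9 under median-of-ratios scaling), against 18.9% higher and 50.3% lower of all tested genes.

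Complement genes moved in both directions. C3, the central component, measured 451, 504 and 445 TPM in T_P and 24.2, 25.6 and 28.7 TPM in N_P and rose (log2 fold change 4.11 ± 0.21, adjusted p = 4.52e-10), and C5ar1, the receptor for C5a on neutrophils, rose from 14.3 ± 1.80 TPM in N_P to 249 ± 7.72 in T_P (4.04). C1qa, which macrophages make, fell from 179 ± 25.9 TPM in N_P to 52.8 ± 10.0 in T_P (−1.75), and Cd55, the decay accelerator, fell by 2.08 on the log2 scale. Of 23 complement genes tested, 6 were called higher and 10 lower (median log2 fold change −0.38; 10 and 8 under median-of-ratios scaling), against 18.9% higher and 50.3% lower of all tested genes.

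Genes of the BCL2 family, which set cell survival, also moved in both directions. Bcl2, which protects resting lymphocytes, measured 5.73, 3.57 and 5.31 TPM in T_P and 33.8, 27.9 and 27.6 TPM in N_P and fell (log2 fold change −2.40 ± 0.18, adjusted p = 1.90e-08), while Bcl2l1, which encodes BCL-XL, rose from 9.88 ± 0.69 TPM in N_P to 24 ± 3.26 in T_P (1.19) and Bak1, a pore-forming member, rose by 1.04. Bax, its relative, fell by 0.96 on the log2 scale. Of 17 members tested, 5 were called higher and 10 lower (median log2 fold change −0.56; 6 and 6 under median-of-ratios scaling), against 18.9% higher and 50.3% lower of all tested genes.

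Itgam, the integrin chain of CD11b, rose from 29.1 ± 4.21 TPM in N_P to 387 ± 23.2 in T_P (3.70), Selplg, the ligand of P-selectin, rose by 0.69, and Icam1 fell by 1.39 on the log2 scale. Of 26 adhesion genes tested, 8 were called higher and 16 lower (median log2 fold change −0.69; 10 and 12 under median-of-ratios scaling). Egln3, a prolyl hydroxylase induced by hypoxia, rose from 1.54 ± 0.233 TPM in N_P to 13.8 ± 1.81 in T_P (2.54), Tgfbi, a matrix protein induced by TGF-beta, rose by 2.06, and Tgfbr2, a TGF-beta receptor subunit, and Smad7, an inhibitor of the pathway, fell by 1.78 and 1.58 on the log2 scale. Of 17 such genes, 5 were called higher and 6 lower (median log2 fold change −0.16; 9 and 3 under median-of-ratios scaling). Egr1, an immediate-early factor, fell by 2.0 on the log2 scale while Fos rose by 1.44. Of 25 heat shock and immediate-early genes, 5 were called higher and 14 lower (median log2 fold change −0.44; 8 and 10 under median-of-ratios scaling), near the shares of all tested genes. Those were 18.9% higher and 50.3% lower, which the adhesion and TGF-beta counts also stand against. Of 12 adipose genes 4 passed the filter, with 2 called higher and 2 lower.

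Of the 6 genes listed at 0 TPM in all 3 N_P libraries and at 5 TPM or more in all 3 T_P libraries, 2 carried a symbol allowed by the naming rule. Retnla, which alternatively activated macrophages express, measured 11.3, 8.61 and 10.3 TPM in T_P, and Dmkn, a secreted protein gene of skin, measured 8.06, 14.2 and 8.63 TPM. Both were picked by these values, so a test of T_P against N_P would add no support and none is given. In the other direction 3 genes met the rule, none with such a symbol.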
